A study of Mus musculus with 3 samples.

Results

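Dmrt1 and Dmrtc2, 2 genes of the DMRT family of DNA-binding proteins, were followed through the fetal development of mouse female germ cells. Both rows were present in a single-cell table of 14133 genes, and they were chosen by name with their levels in these data already known, so their values across stages are a description without a test. The cells were female primordial germ cells (PGCs), the embryonic precursors of oocytes, from fetal ovaries of C57BL/6 mice. They were taken at embryonic day 12.5 (E12.5), day 14.5 (E14.5) and day 16.5 (E16.5). The cells of each stage were sorted for Oct4-EGFP, a green fluorescent reporter of Pou5f1 (Oct4), and no other allele, treatment or agent is named. Each stage was 1 library, so stage and library cannot be told apart, and the labels do not say how many embryos were pooled. Oct4-EGFP was itself the gate, while Pou5f1 RNA was lower at each later stage (681.0, 161.4 and 18.9 UMIs per 1000000).

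DMRT proteins bind DNA through the DM domain, a zinc-binding module rich in cysteine and histidine. Dmrt1 is best known as the factor that keeps Sertoli cells male and that holds spermatogonia back from meiosis, and in the fetal ovary it is known to promote expression of Stra8, the gene that licenses meiotic entry. Dmrtc2 (also called Dmrt7) is known for its role in male meiosis, where the protein gathers on the silenced sex chromosomes.

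The DM domain is the feature that makes both genes members of the family. Its coding stretch, from the first to the last cysteine codon of the zinc-binding core, was read from the GENCODE transcripts (GRCm38, plus strand for both). It lies in exon 1 of Dmrt1 at chr19:25506073-25506162 and in exon 2 of Dmrtc2 at chr7:24872605-24872694. Capitals mark the codons for cysteine and histidine.
Dmrt1: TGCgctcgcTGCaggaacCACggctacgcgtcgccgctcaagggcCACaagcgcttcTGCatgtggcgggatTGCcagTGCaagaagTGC
Dmrtc2: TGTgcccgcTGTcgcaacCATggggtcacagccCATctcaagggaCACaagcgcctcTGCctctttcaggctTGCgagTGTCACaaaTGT
Both stretches code for 30 residues, of which 19 (63.3%) are identical, and 61 of the 90 bases (67.8%) are the same. Each has 6 cysteine codons. The Dmrt1 stretch has 2 histidine codons and the Dmrtc2 stretch has 4. The whole Dmrt1 gene (ENSMUSG00000024837.15) spans chr19:25505618-25604329 and Dmrtc2 (ENSMUSG00000011349.5) spans chr7:24870057-24877651.

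The table held 19144 cells, and counts of unique molecular identifiers (UMIs), each marking 1 captured RNA molecule, could be recovered from it exactly. The libraries held 4706, 9075 and 5363 cells in time order, with 125648312, 104214125 and 69821387 UMIs and medians of 26691.5, 10960 and 12659 UMIs per cell. Of the cells, 4678, 8903 and 5312 fell in 10 germ-cell-like clusters, and 25, 166 and 22 fell in 1 pregranulosa-like cluster (pregranulosa cells are the ovarian supporting cells). In the germ-cell-like sums, 11 of 16 germ cell markers reached 10 CPM (UMIs of a gene per 1000000 UMIs of all genes) at E12.5 and 16 of 16 later, and none of the 13 pregranulosa markers measured reached 10 CPM. Of 6 endothelial markers, 3, 3 and 2 reached 10 CPM in time order (sums of 95.9, 39.6 and 28.9 CPM), and 3 of 4 erythroid markers reached it at E16.5 (0.304, 11.9 and 76.7 CPM); their part in the results was not tested. Between libraries, 173 cell barcodes were shared. At E12.5, a cluster of 632 cells was led by Lefty2, Lefty1 and the Y-linked genes Eif2s3y, Uba1y and Ddx3y, which goes against the label female. The E12.5 levels of both genes and their ratios between Stra8 groups are therefore also given without cells that hold a Y-linked UMI. The E12.5 bins by gene lists, the same-cell counts and the list contrasts keep those cells. All intervals are 95% intervals of counting error only, exact Poisson for sums and exact binomial for shares of cells, and no p-value was computed, since cells of 1 library are not replicates.

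Dmrt1 RNA was present in germ cells at E12.5 and E14.5 and was low at E16.5. Its level was 37.5 CPM at E12.5 (4689 UMIs, interval 36.4 to 38.55), 43.8 CPM at E14.5 (4493 UMIs, 42.6 to 45.1) and 7.18 CPM at E16.5 (495 UMIs, 6.56 to 7.84). E16.5 cells thus had a level 6.11-fold lower than E14.5 cells (5.57 to 6.72). E16.5 stood apart from both earlier stages, which lay within 1.17-fold of each other (1.12 to 1.22). The order of those 2 stages depended on the scaling: E14.5 was above E12.5 by a log2 ratio of 0.23 per total UMI, and below it at -0.10 and -0.04 when the stage sums were scaled by the median of ratios and by the trimmed mean of M values (TMM). Per cell, without scaling to depth, Dmrt1 gave 1.0 UMI at E12.5, 0.505 at E14.5 and 0.0932 at E16.5.

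Dmrtc2 RNA had another course, with little at E12.5 and a high level at both later stages. It gave 2.26 CPM at E12.5 (283 UMIs, interval 2.01 to 2.54), 212.3 CPM at E14.5 (21764 UMIs, 209.5 to 215.2) and 228.3 CPM at E16.5 (15745 UMIs, 224.7 to 231.8). Between E12.5 and E14.5 the level was 93.9-fold higher (83.5 to 106). E16.5 and E14.5 differed by 1.08-fold (1.05 to 1.10), a difference that turned to a log2 value of -0.05 when the CPM of single cells was averaged. Dmrtc2 gave 0.0605 UMIs per cell at E12.5, 2.44 at E14.5 and 2.96 at E16.5.

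**Figure D1:**
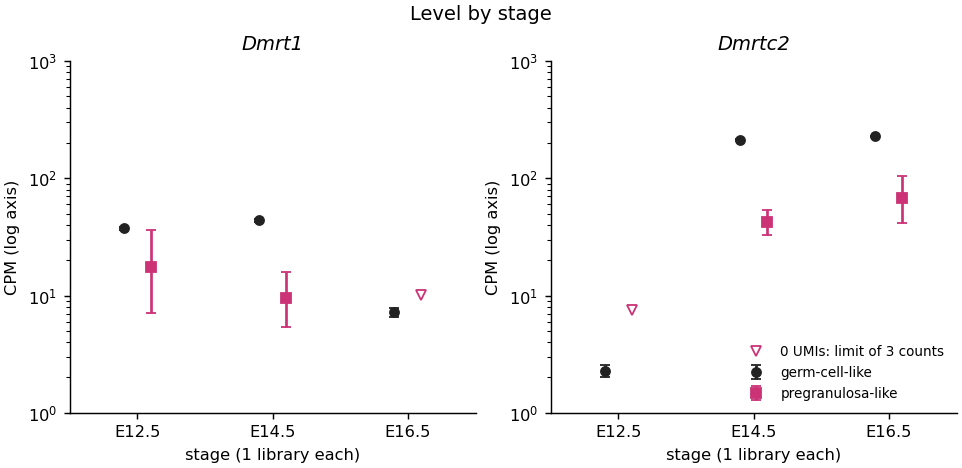
Level of Dmrt1 (left) and Dmrtc2 (right) in CPM (log axis) in the summed germ-cell-like cells (circles) and pregranulosa-like cells (squares) of each stage, with 95% counting intervals; open triangles mark a sum of 0 UMIs at its limit of 3 counts. In germ-cell-like cells Dmrt1 is near 40 at the first 2 stages and 7.18 at E16.5, and Dmrtc2 goes from 2.26 at E12.5 to 212.3 and 228.3.

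Among the 14132 genes with at least 10 UMIs over the 3 sums, 31.2% stood 2-fold or more above their E12.5 level at E14.5 and 16.3% stood 2-fold or more below it. Dmrtc2 is in the first share and Dmrt1 in neither. From E14.5 to E16.5, 16.3% of genes stood 2-fold or more higher and 17.4% as far lower, and Dmrt1 is in the second share. From E12.5 to E16.5 the shares were 37.0% and 22.7%, with Dmrtc2 in the first and Dmrt1 in the second. Both genes were picked from these contrasts, so nothing is read from these positions. With other scalings the 4414 higher and 2305 lower genes between E12.5 and E14.5 became 3562 and 3152 (median of ratios) or 3714 and 2988 (TMM). The median log2 ratio of all genes moved from 0.30 to -0.03 or 0.03.

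Counts per cell were compared after every cell was thinned to 8000 UMIs, which left out 59, 1149 and 410 shallower cells in time order. A Dmrt1 UMI was then found in 24.6% of cells at E12.5 (interval 23.4 to 25.9), 27.1% at E14.5 (26.2 to 28.2) and 4.71% at E16.5 (4.14 to 5.34). Unthinned, the shares were 58.5%, 34.6% and 7.53%, with median depths of 26710.5, 11002 and 12632 UMIs, so the unthinned drop between the first 2 stages went with depth. For Dmrtc2 the thinned shares were 2.16% (1.76 to 2.63), 64.5% (63.5 to 65.6) and 76.8% (75.6 to 78.0), against 5.73%, 74.2% and 86.8% unthinned.

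Dmrt1 was a gene of few molecules in every stage. A thinned cell held at most 3 Dmrt1 UMIs at E12.5, 5 at E14.5 and 3 at E16.5, and 21.2% of E14.5 cells held exactly 1. Dmrtc2 spread more widely: 17.6% of E14.5 cells and 15.1% of E16.5 cells held 4 or more UMIs, with up to 13 and 12 in a cell, beside 35.5% and 23.2% with none. More E14.5 cells than E16.5 cells were thus at both ends of the Dmrtc2 range.

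The pregranulosa-like cells give a level against which low germ cell values must be read. At E14.5 these 166 cells held Dmrt1 at 9.54 CPM (5.34 to 15.7), 21.8% of the germ cell level, and Dmrtc2 at 42.6 CPM (33.0 to 54.1), 20.1% of it. The germ cell markers tested the same way stood at 18.0% to 44.2% (median 20.4% of 14 markers). A Dmrt1 UMI was found in 7.23% of the pregranulosa-like cells and a Dmrtc2 UMI in 18.1%, at a median depth of 8491.5 UMIs. The 67 Dmrtc2 UMIs lay in 30 of the cells, with up to 5 in a cell, and the 15 Dmrt1 UMIs in 12 cells, with up to 2. Whether free RNA or doublets supplied them was not tested. At E16.5, the 22 pregranulosa-like cells held no Dmrt1 UMI, with a limit of 13.6% at 3 cells and 15.4% by the exact interval. They held Dmrtc2 at 67.8 CPM, 29.7% of the germ cell level (markers, median 27.3%). At E12.5, the 25 cells (median depth 13397) held no Dmrtc2 UMI, with a limit of 12% at 3 cells and 13.7% by the exact interval. Their 7 Dmrt1 UMIs gave 17.7 CPM (7.10 to 36.4) or 47.1% of the germ cell level, where 7 markers reached 12.2% to 34.9%. The E12.5 share of cells with Dmrtc2 and the E16.5 share with Dmrt1 are below what so few pregranulosa-like cells can resolve.

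The stage means hid a wide range within the E14.5 library. Clusters were formed without Dmrt1 and Dmrtc2, and 5 of them held at least 100 E14.5 cells. Cluster 1 (3034 cells) had the lowest summed level of synaptonemal complex and axis genes (2319 CPM) and the highest of pluripotency genes (2508 CPM). Those sums were 4293 and 1215 CPM in cluster 4, 6078 and 691.2 in cluster 5, and 9059 and 272.5 in cluster 6. In this order the axis sum was higher and the pluripotency sum lower from cluster to cluster, and cluster 8 (200 cells) had sums of 8719 and 416.0 CPM.

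Along that order Dmrt1 was lower from cluster to cluster. It stood at 67.2 CPM in cluster 1 (64.7 to 69.7), 52.3 in cluster 4 (49.4 to 55.3), 20.1 in cluster 5 (18.1 to 22.1) and 4.15 in cluster 6 (3.21 to 5.28). Neighbours in the order did not overlap in their intervals. Of the Dmrt1 UMIs of the stage, 61.4% came from cluster 1, which held 34.1% of the cells. The level in cluster 6 lay below that of the pregranulosa-like cells, and 3.64% of its cells held a UMI against 7.23% there. Dmrt1 in cluster 6 was thus not above the pregranulosa-like level, whose source was not tested, and no fold is given against it.

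Dmrtc2 ran the opposite way. It stood at 43.2 CPM in cluster 1 (41.2 to 45.3), 212.7 in cluster 4 (206.8 to 218.8), 358.0 in cluster 5 (349.8 to 366.4) and 436.5 in cluster 6 (426.3 to 446.9). Cluster 1 matched the pregranulosa-like level of 42.6 CPM. Its thinned share of cells with a UMI, 26.7%, lay inside the interval of the pregranulosa-like share (21.6% of 102 cells, 14 to 30.8). Unthinned, the shares were 37.3% (35.6 to 39.1) and 18.1% (12.5 to 24.8), at median depths of 13107 and 8491.5 UMIs. By CPM and thinned share, Dmrtc2 in cluster 1 was thus not above the pregranulosa-like level, and no fold is given against it. This does not show that its cells lack Dmrtc2. The small cluster 8 (200 cells, median depth 7018) had the highest level, 531.9 CPM (495.2 to 570.6), with Dmrt1 at 16.4 CPM (10.5 to 24.4).

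Depth moved with this order. The median was 13107 UMIs per cell in cluster 1, 11311 in cluster 4, 10357.5 in cluster 5 and 8821 in cluster 6. At 8000 UMIs per cell, the share of cells with Dmrt1 was 40.6%, 33.4%, 13.9% and 3.47% in the same order, and the share with Dmrtc2 was 26.7%, 79.0%, 92.8% and 95.6%. Both gradients thus held at equal depth. Stra8 did not follow either gene: it stood at 1132, 2085, 1856 and 956.4 CPM, highest in the middle clusters.

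**Figure D2:**
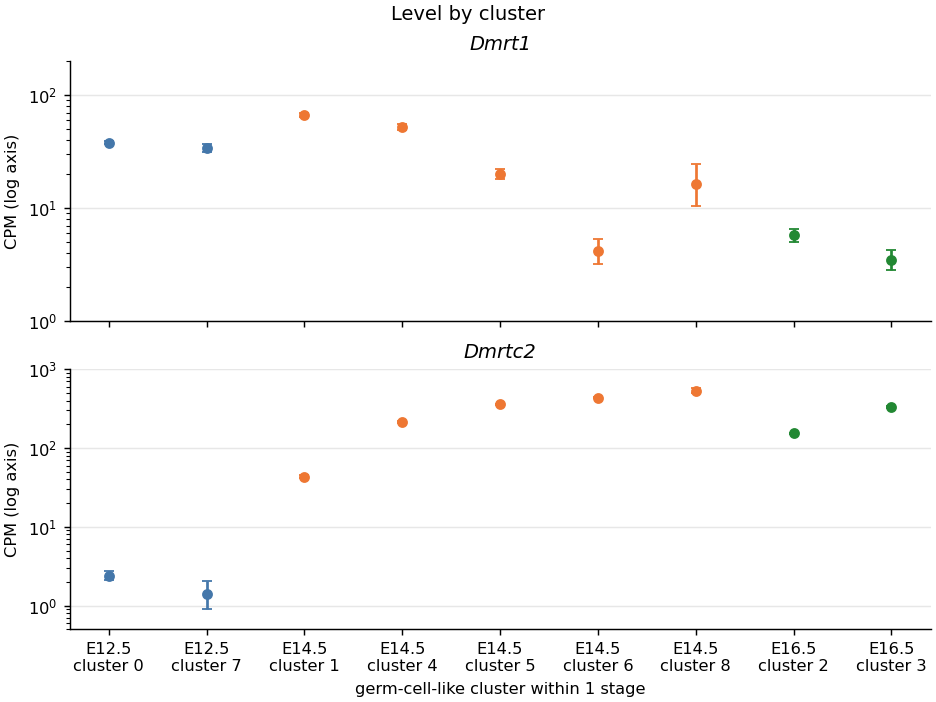
Level of Dmrt1 (top) and Dmrtc2 (bottom) in CPM (log axis) in the 9 germ-cell-like clusters with at least 100 cells of 1 stage, with 95% counting intervals; colours mark the stage. Within E14.5, Dmrt1 goes from 67.2 in cluster 1 to 4.15 in cluster 6 while Dmrtc2 goes from 43.2 to 436.5.

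At E12.5 the 2 large clusters differed less. Dmrt1 stood at 37.9 CPM (36.7 to 39.1) in cluster 0 (3976 cells) and at 33.8 (31.2 to 36.6) in the Y-linked and Lefty-led cluster 7, and Dmrtc2 at 2.41 (2.12 to 2.72) and 1.39 (0.901 to 2.06). In the 520 E12.5 cells with 2 or more Y-linked UMIs, Dmrt1 was at 33.1 CPM and Dmrtc2 at 1.51 CPM, against 38.2 and 2.42 CPM in the 4012 cells with none. The same cells were at 0.132 and 3.75 CPM for Stra8. A set of 67 cells in cluster 10, led by Nanog, Ccnb1 and Aurka, had Dmrt1 at 63.0 CPM (46.9 to 82.9) at a median depth of only 10405 UMIs, with 1 Dmrtc2 UMI in all.

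E12.5 cells that already held Stra8 RNA had more of both genes. Dmrt1 stood at 36.4 CPM (35.3 to 37.5) in the 4465 cells without a Stra8 UMI, 54.4 (46.9 to 62.8) in the 132 cells with 1 and 67.1 (56.9 to 78.5) in the 81 cells with 2 or more. The last group was 1.84-fold above the first (1.56 to 2.16), and its level equalled that of E14.5 cluster 1 to within a ratio of 0.999 (0.843 to 1.17). Dmrtc2 stood at 2.08 (1.83 to 2.35), 4.07 (2.23 to 6.83) and 9.14 CPM (5.66 to 13.98) in the same groups, 4.40-fold higher in the last (2.68 to 6.88). Median depths were 26701, 26187.5 and 29200 UMIs. Without cells holding a Y-linked UMI, a restriction chosen after the values were seen, the ratios were 1.79 for Dmrt1 and 4.19 for Dmrtc2.

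The pluripotency and axis lists ordered Dmrt1 in opposite ways at E12.5 and E14.5. When E12.5 cells were split into 3 bins of near equal size by their summed pluripotency level, Dmrt1 was at 47.1 CPM in the lowest bin, 37.7 in the middle and 28.0 in the highest, a 1.68-fold lower level in the highest (1.56 to 1.80). At E14.5 the same split gave 11.96, 42.8 and 67.0 CPM, a 5.6-fold higher level in the highest bin (5 to 6.29). The lowest E14.5 bin lay inside the pregranulosa-like interval (5.34 to 15.7), so this fold rests on a level not above that of the pregranulosa-like cells. The bin of highest pluripotency level at E12.5 (28.0 CPM) and that of lowest level at E14.5 thus both had less Dmrt1 than the bins between them. The E12.5 bins keep the Y-linked and Lefty-led cluster 7, with Dmrt1 at 33.8 CPM and Dmrtc2 at 1.39 CPM. Its pluripotency sum, 9176 CPM, lay above the median of the highest bin, 8669 CPM. Its part in the E12.5 gradients of both genes was not tested.

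The axis list gave the mirror image. Dmrt1 was at 32.2, 34.4 and 45.7 CPM from the lowest to the highest bin at E12.5, and at 66.9, 44.8 and 10.3 CPM at E14.5, the last again inside the pregranulosa-like interval. At E16.5 it was at 14.1, 4.44 and 2.56 CPM. The E16.5 cells with least axis RNA were thus those with most Dmrt1, by 5.49-fold (4.14 to 7.41). The highest bin held 57 UMIs, and the E16.5 pregranulosa-like cells could not resolve a level under 10.2 CPM. The ratio of the lowest to the highest bin therefore rests on a level not shown to be above theirs. That ratio was 3.05 (2.24 to 4.2) without the 141 E16.5 cells that grouped with E14.5 cells in clusters 1 and 4, and 3.01 (2.2 to 4.17) without all 293 in clusters led by E14.5 cells, both chosen after the values were seen. Sorted by mitosis genes, the highest and lowest bins differed in Dmrt1 by 1.06-fold at E12.5, 1.05-fold at E14.5 and 1.14-fold at E16.5, with intervals that all include 1, and the middle bin at E14.5 was lower than both, at 38.5 CPM against 45.3 and 47.3.

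For Dmrtc2 the direction was the same at E12.5 and E14.5. From the lowest to the highest pluripotency bin it was at 3.34, 2.05 and 1.44 CPM at E12.5 and at 403.5, 238.1 and 57.1 CPM at E14.5. From the lowest to the highest axis bin it was at 1.35, 2.14 and 3.28 CPM at E12.5, 46.9, 231.9 and 421.4 CPM at E14.5, and 163.4, 239.5 and 286.4 CPM at E16.5. The highest axis bin was above the lowest by 2.42-fold (1.76 to 3.38), 8.98-fold (8.55 to 9.43) and 1.75-fold (1.68 to 1.82) in time order, where the lowest E14.5 bin lay inside the pregranulosa-like interval (33.0 to 54.1). Cells with more axis RNA had more Dmrtc2 in all 3 libraries. The E12.5 bins all lay under the 7.56 CPM that the E12.5 pregranulosa-like cells can resolve, so the folds of the stages are not ranked. At E16.5 the pluripotency bins were nearly level, at 222.0, 226.6 and 235.6 CPM. Sorted by mitosis genes, Dmrtc2 at E14.5 was at 221.8, 252.3 and 167.2 CPM, highest in the middle bin, and the highest bin was 1.33-fold below the lowest (1.28 to 1.37). At E16.5 it was 1.21-fold above it (1.16 to 1.26). By Stra8, E14.5 cells in 3 bins had Dmrtc2 at 172.0, 213.6 and 252.4 CPM while Dmrt1 was at 43.2, 43.0 and 45.3 CPM. At E16.5 the Stra8 bins held 2368, 1173 and 1771 cells. Dmrt1 was at 4.82, 5.13 and 11.5 CPM in them and Dmrtc2 at 181.8, 207.0 and 300.3 CPM, both highest in the highest bin. The 141 E16.5 cells in clusters 1 and 4, with 34.7% of the stage's Dmrt1 UMIs, had Stra8 at 756.3 and 1883 CPM. Their part in the Dmrt1 difference between the Stra8 bins was not tested. The bins are sets of cells of 1 library, not samples, and a cell's own total enters both the sorting value and the CPM.

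**Figure D3:**
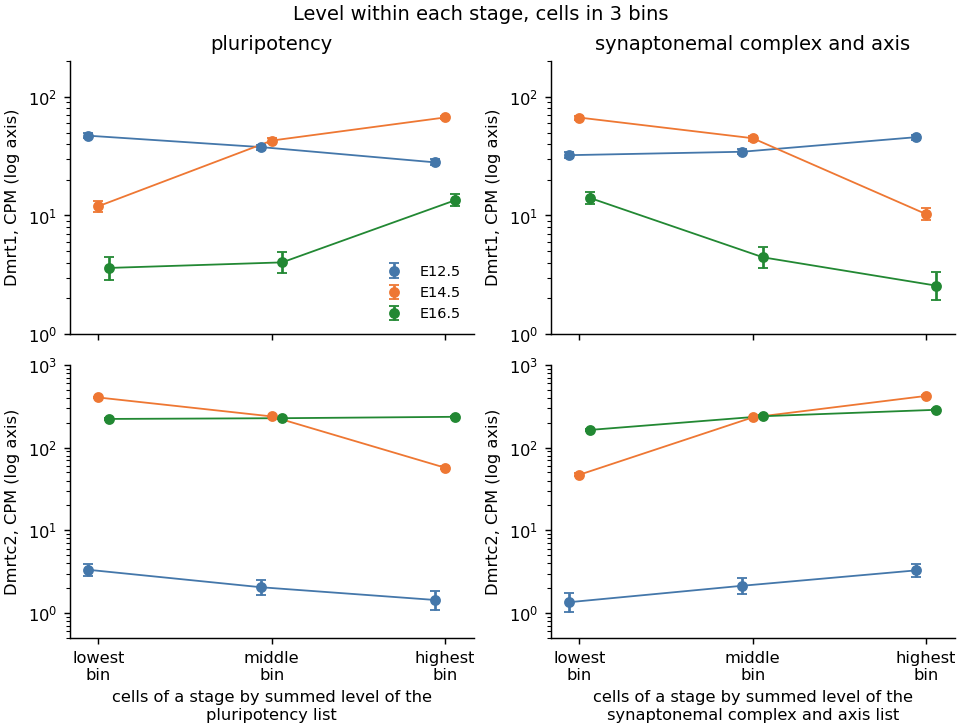
Dmrt1 (top) and Dmrtc2 (bottom) in CPM (log axis) in 3 bins of each stage's germ-cell-like cells, sorted by the summed level of pluripotency genes (left) or of synaptonemal complex and axis genes (right), with 95% counting intervals. Dmrt1 goes down with pluripotency level at E12.5 (47.1 to 28.0) and up at E14.5 (11.96 to 67.0), while Dmrtc2 goes down at both.

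The E16.5 library also held a range of levels. Its cells formed 2 main clusters, with Dmrt1 at 5.76 CPM (5.01 to 6.59) in cluster 2 (2869 cells) and 3.50 (2.84 to 4.26) in cluster 3 (2150 cells). Dmrtc2 was at 153.2 CPM (149.2 to 157.2) and 331.6 CPM (324.8 to 338.4), 2.16-fold higher in cluster 3 (2.09 to 2.24), which also had the higher summed axis level (12060 against 9019 CPM).

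A few E16.5 cells carried much of that stage's Dmrt1, a pattern noticed after the values were seen. The 73 E16.5 cells that grouped with E14.5 cells in cluster 1 had Dmrt1 at 68.2 CPM (55.6 to 82.7), and the 68 in cluster 4 had 52.8 CPM (41.1 to 66.8). E14.5 cells of these clusters had 67.2 and 52.3 CPM, so the ratios were 1.02 (0.826 to 1.24) and 1.01 (0.781 to 1.29). Together these 141 cells were 2.65% of the germ-cell-like cells and held 172 of the 495 Dmrt1 UMIs (34.7%). Their Dmrtc2 levels, 39.7 and 161.5 CPM, were likewise near or below those of the E14.5 cells (43.2 and 212.7 CPM).

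Without any of the 293 E16.5 cells that lay in E14.5-led clusters, Dmrt1 at E16.5 was 4.79 CPM (4.27 to 5.35) and its log2 ratio to E14.5 went from -2.61 to -3.20, while Dmrtc2 was 229.9 CPM. The 141 cells had a median of 20029 UMIs, above the 12632 of their stage, and whether they are doublets was not tested beyond a caller that marked few cells. Of the 293 cells, 5 had a barcode also present in the E14.5 library, against 72 of all 5363 E16.5 cells.

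Both RNAs were looked for in the same cells at 8000 UMIs each. At E14.5, 1033 of 7754 cells held UMIs of both genes, 1072 of Dmrt1 only, 3971 of Dmrtc2 only and 1678 of neither. The share with both, 13.3%, was below the product of the 2 shares, 17.5%. Within single clusters it was close to the product: 10.4% against 10.8% in cluster 1, 25.4% against 26.4% in cluster 4, 12.8% against 12.9% in cluster 5 and 3.39% against 3.32% in cluster 6. In clusters 1 and 6 one of the genes was not above the pregranulosa-like level, so only clusters 4 and 5 bear on both genes together. Cluster 4, where Rec8 and Stra8 were among the leading genes, had the largest share of cells with both. At E12.5, 30 of 4619 cells held both (0.649% against a product of 0.533%), and at E16.5, 153 of 4902 (3.12% against 3.62%).

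**Figure D4:**
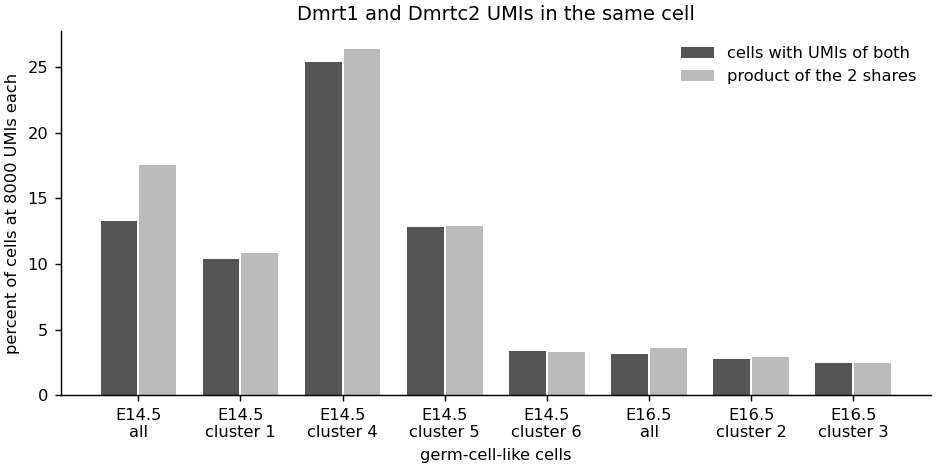
Percent of germ-cell-like cells with UMIs of both Dmrt1 and Dmrtc2 at 8000 UMIs per cell (dark bars) beside the product of the 2 genes' shares (light bars), for all cells and for single clusters at E14.5 and E16.5. Over all E14.5 cells 13.3% held both against a product of 17.5%, and within clusters both bars are nearly equal, with the highest pair in cluster 4.

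Dmrtc2 has a near neighbour on the chromosome whose RNA had a similar course. Lypd4, a gene for a small surface protein of the Ly6 family, lies head to head with it, on the minus strand at chr7:24864620-24869941, and the annotated GENCODE starts are 116 bases apart. Lypd4 gave 2 UMIs in all at E12.5 (0.0160 CPM), 75.3 CPM at E14.5 and 63.5 CPM at E16.5. In E14.5 clusters 1, 4, 5 and 6 it stood at 11.0, 78.1, 132.9 and 159.3 CPM, in the order of Dmrtc2. The first value lay below the pregranulosa-like level at E14.5, 18.45 CPM. In cluster 8, where Dmrtc2 was highest (531.9 CPM), Lypd4 was at 152.1 CPM, below cluster 6. In E16.5 clusters 2 and 3 Lypd4 stood at 32.5 and 104.1 CPM. Over the 9 clusters within a stage, Pearson's r of the log2(CPM + 1) values with Dmrtc2 was 0.995. The 10 genes most like Dmrtc2, listed below, had r from 0.995 to 0.998. These points share libraries and depths, and many genes vary with stage, so r is a description.

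The stretch between both starts is shown because the GENCODE starts of both genes lie at its ends. Its letters were read from the RefSeq promoter table (GRCm38.p6, plus strand, chr7:24869942-24870056). Capitals mark CCAAT boxes on the minus strand, read here as ATTGG, a motif searched for after the sequence was seen.
Dmrtc2 and Lypd4, between starts: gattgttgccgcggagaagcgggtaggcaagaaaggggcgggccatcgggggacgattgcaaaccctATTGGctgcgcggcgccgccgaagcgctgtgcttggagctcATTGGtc
The 300-base window of Dmrtc2 in that table holds 4 matches to CCAAT on either strand, 2 of them in the stretch shown, and 37.9% of 27025 promoters hold at least 1 and 1.14% at least 4. It holds 26 CpG dinucleotides, against a median of 7 over all promoters, and 16.8% of promoters hold as many or more. The nuclear receptor motif AGGTCA matched once (16% of promoters). ACANTGT, a core of the DMRT-type site, matched nowhere in it (7.59% of promoters), nor did the E-box CACGTG (7.24%) or CNCCTCAG (7.97%), all searched on both strands. RefSeq's gene models of Lypd4 and Dmrtc2 overlap at their starts (chr7:24869817-24869924), whereas the library kit was one for 3' ends. The strand setting of the counting is unknown. Whether any reads lay in the overlap, or were split between both genes, was not tested.

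**Figure D5:**
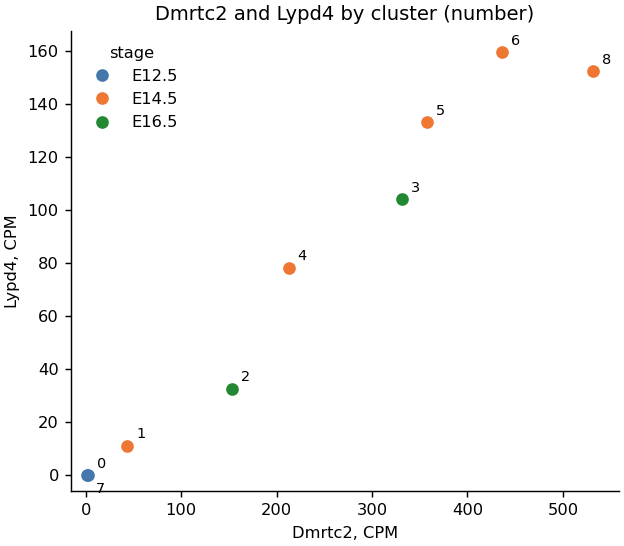
Lypd4 against Dmrtc2 in CPM in the 9 germ-cell-like clusters with at least 100 cells of 1 stage; each point is 1 cluster with its number, colours mark the stage. Both genes are near 0 in E12.5 clusters 0 and 7, and in E14.5 clusters 1, 4, 5 and 6 both go up in that order.

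The other neighbours of Dmrtc2 had other courses. Cd79a, a B cell receptor component, came nearest, with a low level that was 4.31-fold higher at E14.5 (0.887, 3.82 and 1.96 CPM in time order). Rps19, a ribosomal protein gene downstream of it, stood at 5368, 6373 and 6955 CPM in time order. Ceacam10, beyond Lypd4, was at 11.5 CPM at E12.5 and at 0.293 and 0.116 CPM later, Arhgef1 was at 28.6, 11.5 and 18.6 CPM, and Rabac1 was at 166.1, 262.9 and 230.1 CPM. Among the 5 genes on each side of Dmrt1, Kank1, the nearest upstream, was at 14.6, 6.99 and 4.09 CPM. Smarca2, a chromatin remodelling ATPase gene that lies beyond Dmrt3 and Dmrt2, was at 30.3, 33.7 and 17.3 CPM. Cbwd1 was at 15.95, 61.0 and 80.0 CPM, higher at each later stage. Dock8 (0.487, 0.761 and 0.725 CPM) and Vldlr (0.216, 0.761 and 0.464 CPM) were low. Smarca2 was also lower from cluster 1 to 6 at E14.5, at 50.8, 36.4, 20.6 and 5.91 CPM, in the order of Dmrt1. Kank1 was in the same order there, at 10.1, 7.33, 4.04 and 2.45 CPM.

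Of 11 DMRT family genes, 6 were in the table. Dmrt3, the next gene downstream of Dmrt1, had a similar course at a low level, with 4.66, 4.03 and 1.36 CPM in time order, and was 2.96-fold lower at E16.5 than at E14.5 (2.36 to 3.74). In E14.5 clusters 1, 4, 5 and 6 it was at 6.67, 3.78, 1.75 and 0.818 CPM, again in the order of Dmrt1. The values of clusters 4, 5 and 6 and the E14.5 stage level lay inside the pregranulosa-like interval (0.154 to 4.60 CPM, 2 UMIs). Dmrta2 was instead low at E12.5 and higher later, like Dmrtc2, at 1.25, 28.5 and 22.6 CPM, 22.7-fold higher at E14.5 (19.3 to 26.9). Within E14.5, however, Dmrta2 had no gradient of the Dmrtc2 kind, at 25.9, 35.7, 30.8 and 23.2 CPM.

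Dmrtb1, which in the testis is known to govern the switch from spermatogonia to meiosis, was at 0.328, 5.03 and 4.68 CPM. Within E14.5 and within E16.5 it was higher in the clusters where Dmrtc2 was lower: 7.79, 6.47, 1.80 and 0.503 CPM in E14.5 clusters 1, 4, 5 and 6, and 7.52 and 0.973 CPM in E16.5 clusters 2 and 3. The values of E14.5 clusters 5 and 6 lay inside the pregranulosa-like interval (0.0161 to 3.545 CPM, 1 UMI). At E16.5 the pregranulosa-like cells could not resolve a level under 10.2 CPM. Dmrtc1a had no UMI at E12.5 and 1.04 and 3.06 CPM later. The E14.5 pregranulosa-like cells had it at 3.82 CPM (1.40 to 8.31, 6 UMIs). At E16.5 they held no UMI of it, with a limit of 10.2 CPM at 3 counts. The germ cell level was thus not shown to be above theirs, and no fold is given. Dmrtc1a has near-identical copies, so its counts are uncertain. Dmrt2, Dmrta1, Dmrtc1b, Dmrtc1c1 and Dmrtc1c2 were not in the table analysed here.

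Genes tied to Dmrt1 in germ cells by earlier work are given as a list, described by counts and not tested. Of 11 measured, 5 stood 2-fold or more above their E12.5 level at E14.5 and 5 as far below it (4 and 5 with either other scaling). Their median log2 ratio was 0.75 against 0.30 over all genes, of which 31.2% stood higher and 16.3% lower. At E16.5 against E14.5, 1 was higher and 8 lower (9 with TMM), median -2.11 against 0.06. In that contrast 16.3% of all genes were higher and 17.4% lower. Stra8 went from 3.28 CPM to 1457 CPM at E14.5 and 274.4 CPM at E16.5, and was thus 5.31-fold lower at E16.5 (5.23 to 5.39) where Dmrt1 was 6.11-fold lower. Sox2, a pluripotency factor, was at 206.1, 35.0 and 3.35 CPM, and Nanog, another, at 62.2, 3.20 and 0.218 CPM. Of 16 genes of the sex body and of meiotic silencing, the setting in which Dmrtc2 is known from males, 6 were at least 2-fold higher at E14.5 than at E12.5 and none lower, with a median log2 ratio of 0.45. Over all genes 31.2% were higher and 16.3% lower, with a median of 0.30. In this list 2 were lower with median of ratios scaling and 1 with TMM. Scml2, a Polycomb protein of that list, was at 7.59, 63.4 and 81.7 CPM.

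For meiosis itself, 9 of 10 genes of meiotic entry and 13 of 13 of the synaptonemal complex and axis were at least 2-fold higher at E14.5 than at E12.5, with median log2 ratios of 3.81 and 3.95. All 12 pluripotency genes were at least 2-fold lower, median -2.55. From E14.5 to E16.5, 2 of the 10 meiotic entry genes were at least 2-fold higher and 3 lower. Of the 13 axis genes, 8 were higher and none lower, where 16.3% of all genes were higher and 17.4% lower. The Dmrtc2 level thus stood nearly still while axis genes such as Sycp1 (446.3 to 1701 CPM) were higher. The lists for retinoic acid signalling (11 measured), mitosis (17), gonadal sex determination (9) and the male fetal germ line (7) had 3, 0, 8 and 2 genes past 2-fold higher and 1, 8, 0 and 5 past 2-fold lower at E14.5, with median log2 ratios of 0.75, -0.95, 1.86 and -6.18, beside the 31.2% higher and 16.3% lower over all genes. With either other scaling, 2 retinoic acid genes were past 2-fold lower and 7 sex determination genes past 2-fold higher. Mitosis genes past 2-fold lower were 11 with median of ratios and 10 with TMM. Retinoic acid genes past 2-fold higher were 2 with median of ratios and 3 with TMM. Meiotic entry and axis genes past 2-fold higher were 8 and 12 with either. The sex determination genes were low: the highest at E14.5, Rspo1, was at 3.30 CPM. Gata4 rested on 2 UMIs at E12.5 and 30 at E14.5. Their count is thus not read as a rise of that programme in germ cells. Rec8, a meiotic cohesin, was at 8.65 CPM at E12.5, 201.6 at E14.5 and 18.1 at E16.5, lower at E16.5 than at E14.5 as Dmrt1 was.

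The genes most like each member over the 9 clusters within a stage were ranked as a description. By Pearson's r of log2(CPM + 1) among 6855 genes of at least 20 CPM in 1 cluster, the 10 most like Dmrt1 were Colgalt1 (r = 0.994), Phf19, Aard, Tcea3, Krtcap3, Tcf3, Hnrnpl, Hmgb3, Ctps2 and Msrb1 (r = 0.980). Phf19, a Polycomb-associated protein, stood at 20.3, 25.0 and 2.07 CPM by stage. Those most like Dmrtc2 were Tgfbr1 (r = 0.998), Syn1, Rbmx2, Abhd16a, Ccdc92, Stk31, Tinf2, Xlr4a, Tbccd1 and Tpra1 (r = 0.995). Stk31, a germ cell kinase-like protein, stood at 93.1, 460.3 and 564.9 CPM by stage and Xlr4a, an X-linked gene with close copies whose reads may be split, at 9.79, 190.2 and 242.1 CPM. Dmrt1 and Dmrtc2 themselves had r = -0.531 over these 9 clusters.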

How the data were processed

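The kit was the version 2 kit for 3' ends of 10x Genomics, per the labels' protocols. Cell Ranger 2.0.0, FastQC and mm10 come from the submitters' processing notes, with settings and filters not given in the sources used here. Values deposited by the authors are on a natural log scale, each ln(1 + 10000 x UMIs / total UMIs of the cell). Reversing this gave whole UMIs for 100.0% of 68606039 non-zero values (within 0.01), so sums of UMIs replaced the foreseen mean values. Clustering used scanpy 1.11.5 (2000 variable genes without Dmrt1 and Dmrtc2, 30 components, 15 neighbours, Leiden resolution 0.5). Its doublet caller marked 38 of 19144 cells (0.20%), which were left out. This is too few for a working caller unless doublets were removed before deposit, and doublets may be present. The deposited cells held at least 2021, 1998 and 1998 genes and at most 5489, 5466 and 5471 in time order. Mitochondrial UMIs were at most 5.00% of a cell. Whether cells outside such limits were left out before deposit was not tested, nor was any effect on the E12.5 library, whose median was 4637.5 genes. Thinning drew 8000 UMIs per cell at random without replacement.

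The members, lists and bins were chosen with earlier results of these data known. Named genes were the DMRT family, the genes used for bins, chromosome neighbours, the 10 most like each member, and from each list those of highest CPM or largest ratio. The E16.5 cells of E14.5-led clusters, cluster 10 and the CCAAT search were chosen after the data were seen. Alternatives were other cells, averaging, thinning, scaling and filters. The scripts were tested on simulated data.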

Additional observations from a re-analysis of the deposited data

How the results depend on the processing

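As log2 ratios, Dmrt1 at E14.5 over E12.5 (0.23) was 0.08 when CPM was averaged over cells, -0.10 with median of ratios scaling and -0.04 with TMM, so its direction is not settled. Dmrt1 at E16.5 over E14.5 (-2.61) was -3.20 with E16.5 cells of the 2 main E16.5 clusters alone, an alternative added after the data were seen. Dmrtc2 at E14.5 over E12.5 (6.55) was 6.75 averaged over cells, 6.29 at 8000 UMIs per cell, 6.23 with median of ratios and 6.28 with TMM. Dmrtc2 at E16.5 over E14.5 (0.10) was -0.05 averaged over cells, 0.07 at 8000 UMIs, 0.05 with median of ratios and 0.01 with TMM. The cause of these moves was not tested. The other 30 alternatives to these ratios and to the counts of all genes moved them by less than the counting interval or 1.5 times. Of the alternatives for single levels, shares and lists, 141 stayed so and 37 moved, among them the shares of cells at other depths and the Dmrt1 ratio of E16.5 axis bins without cells of clusters led by E14.5 cells. With median of ratios scaling, 53.1% of the genes past 2-fold from E12.5 to E14.5 were higher, and 55.4% with TMM, against 65.7%. With pseudocount 5, 8 of the 10 genes most like each member were the same, and with a minimum of 5 CPM 7 of 10 for Dmrt1 and 9 of 10 for Dmrtc2.

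Leaving out a replicate was not possible with 1 library per stage. No paired analysis was possible because each stage has 1 library and the labels give no replicate numbers. Few UMIs limit Dmrt1 at E16.5 (495) and Dmrtc2 at E12.5 (283, in the deepest library).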
